A study of Drosophila melanogaster with 12 samples.

Results

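Cytosolic ribosomal protein genes encode the protein parts of the ribosome that translates nuclear mRNA, and 70 of them were followed here in larval eye discs of Drosophila melanogaster. They were taken from the 13281 genes of the authors' deposited table as every row whose symbol begins with RpL or RpS followed by a digit or by P. The prefixes name the large and the small ribosomal subunit, which held 44 and 26 of the 70 genes. The symbol rule itself used no measured value, though it was set with earlier results of these data known. Of the 70 symbols, 69 are also the current ones in a RefSeq gene table, and RpL37b is the exception.

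RNA from the discs of larvae in the third instar, kept at 25 degrees Celsius, was measured on 12 Affymetrix expression arrays, 3 biological replicates for each of 4 genotypes. All larvae carried GMR-Gal4, which drives transgenes behind the morphogenetic furrow, the line of differentiation that sweeps across the eye disc. The control was GMR-Gal4/+. The first transgenic genotype was GMR-Gal4/UAS-miR-11, which overexpresses the microRNA miR-11. The second, GMR-Gal4/+; UAS-dE2F1,UAS-dDP/+, overexpresses dE2F1 and dDP, the paired subunits of the transcription factor that drives cells into DNA replication. The last genotype joins the transgenes of both, GMR-Gal4/UAS-miR-11 with UAS-dE2F1,UAS-dDP/+, and carries all 3. The labels name eye discs without a cell sort, so tissue ahead of the furrow, where this driver is not described as active, may also be in each sample. In such bulk samples fewer cells of a type and less RNA per cell cannot be told apart.

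A ribosome holds, as a rule, a single copy of each of its proteins, and cells make these proteins in balance with one another and with ribosomal RNA. Their mRNAs are among the most abundant in growing tissue, and growth regulators such as Myc and the TOR kinase act on ribosome production. In flies, losing a single copy of many of these genes gives the Minute phenotype of slow development and thin bristles, and cells short of a ribosomal protein can be outcompeted by their neighbours. Several of the genes exist in duplicate, and the second copy of such a pair is often used mainly in the germ line.

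Each row of the authors' deposited table gives an average log2 fold change over the control for each transgenic genotype. Beside it stand rank product p-values, one per direction, and the pfp, an estimate of the proportion of false positives among genes ranked as high. It holds no value for a single array, so the fold changes below carry no SD and no n, and values by array cannot be shown. Genes were called where the pfp on the side of the fold change was under 0.05. All 3 comparisons share the 3 control arrays, so their values are set side by side and not treated as separate evidence.

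The arrays themselves had similar means, of 5.96 to 6.02, and medians, of 4.71 to 4.90, on the log2 scale over 18769 probe sets. Their upper quartiles ranged more widely, from 7.71 to 8.28, and within the miR-11 genotype from 7.71 to 8.22. Scores on the first principal component (63.1% of the variance) overlapped between the genotypes: the mean ± SD over 3 arrays was 12.87 ± 32.2 for control larvae, 23.29 ± 58.7 for miR-11, -20.05 ± 47.25 for dE2F1/dDP and -16.11 ± 16.24 for all 3 transgenes. Of 12 eye disc marker genes, 0 were called in any comparison, and their median fold changes were 0.0083 with miR-11, 0.47 with dE2F1/dDP and 0.34 for all 3. With dE2F1/dDP 11 of the 12 stood above 0, and chp stood below it, at -0.18 in the authors' deposited table. The 9 salivary gland markers, most of them glue protein genes, had median fold changes of 1.60, 1.20 and -1.52 in the same order. Of these 9 genes, 2 were called higher with miR-11, 3 higher with dE2F1/dDP and 5 lower for all 3 transgenes. The list was split with dE2F1/dDP, where 7 genes stood above 0 but ng1 at -0.79 and ng3 at -1.35. Among 6 fat body markers, with medians of 1.20, -0.39 and -0.30, 1 was called, higher with miR-11. There all 6 had a doubled, unadjusted rank product p-value under 0.05 on the higher side. These 6 were also split with dE2F1/dDP, with 2 above 0 and 4 below. Of 5 hemocyte markers, with medians of 0.38, 0.22 and 0.027, nimC1 alone was called, with miR-11 and with all 3 transgenes. The authors' deposited table put it at 1.54 and 1.31 in these genotypes and at 0.69 with dE2F1/dDP. This list was split as well, with 3 genes above 0 and 2 below with miR-11 and with all 3 transgenes. With dE2F1/dDP 4 stood above 0 and 1 below. Pxn was below 0 in each comparison, at -0.093, -0.12 and -0.16 in the authors' deposited table. Further, among 5 muscle markers, with medians of 0.11, 0.17 and 0.91, 2 were called, both higher with all 3 transgenes. In that genotype all 5 had a doubled, unadjusted rank product p-value under 0.05 on the higher side. Levels of these markers are not given per gene, and their part in the values of the ribosomal protein genes was not tested.

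Of the 70 ribosomal protein genes, 0 were called in any of the 3 comparisons by the authors' rank product test. Among all genes of the table, by the same rule, 0.452% (60) were called with miR-11, 0.346% (46) with dE2F1/dDP and 0.851% (113) for all 3 transgenes, so a list of 70 genes at these shares would hold few or no calls either. With the smaller of both p-values doubled and left unadjusted at 0.05, 0 of the 70 passed with miR-11, 1 with dE2F1/dDP and 2 for all 3 transgenes. The share of all genes that passed this looser rule was 4.23%, 7.37% and 8.9% respectively. By direction, 2.37%, 3.4% and 4.43% of all genes passed on the higher side and 1.86%, 3.98% and 4.47% on the lower. RpS19b was the member that passed this unadjusted rule on the lower side, with all 3 transgenes.

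The large subunit genes had a median log2 fold change of -0.022 with miR-11, -0.023 with dE2F1/dDP and -0.048 for all 3 transgenes. Those of the small subunit had medians of -0.015, -0.043 and -0.048 in the same order. The median of all 13281 genes was -0.027, -0.033 and -0.027, and once this was subtracted the signs with miR-11 turned, to 0.0050 and 0.012 for the large and small subunit. With dE2F1/dDP the subtraction left 0.010 and -0.010, so the large subunit turned sign there too, and with all 3 transgenes it left both at -0.022. Neither subunit's median therefore lay more than 0.05 from 0 on the log2 scale, before or after the subtraction. Values above 0 belonged to 14 of 44 large subunit genes with miR-11, 15 with dE2F1/dDP and 15 for all 3, and to 7, 6 and 7 of the 26 small subunit genes. Of all genes 43.0%, 42.9% and 44.1% stood above 0.

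The genes also lay in a narrower range than the table as a whole. Within 0.1 of 0 on the log2 scale stood 61 of the 70 with miR-11, which is 87.1%, against 46.9% of all genes. The corresponding counts were 51 (72.9%) with dE2F1/dDP, against 34.5% of all genes, and 52 (74.3%) with all 3 transgenes, against 37.3%. In all 3 comparisons at once, 43 of the 70 stood within 0.1, or 61.4%, compared with 14.1% of all genes. These 43 comprised 27 of the 44 large subunit genes and 16 of the 26 small subunit genes. The SD across the 70 genes, which describes their scatter and not replicate error, was 0.069, 0.15 and 0.13, against 0.27, 0.33 and 0.32 across all genes. Genes are not replicates, and no test of this difference in width was made.

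**Figure D1:**
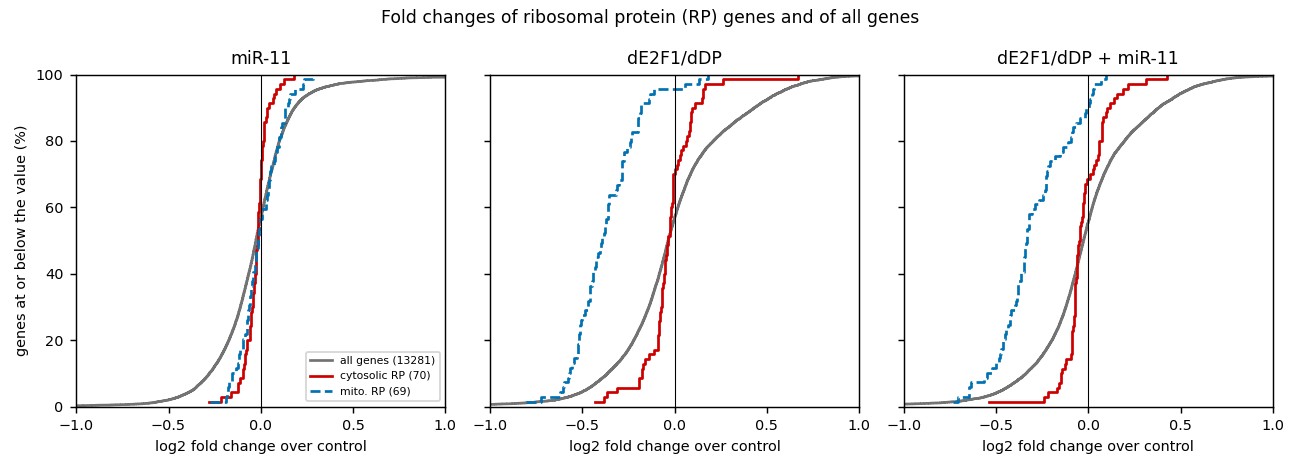
Cumulative share of genes (vertical axis, percent) at or below each log2 fold change over the control (horizontal axis), in one panel per transgenic genotype. The red line of the 70 cytosolic ribosomal protein (RP) genes is steeper than the grey line of all 13281 genes in each panel and stays near 0, while the dashed line of the 69 mitochondrial ones lies to the left of both in the panels with dE2F1/dDP.

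The width of the range varied with signal level on these arrays, and it was narrow at both ends. Among 130 probe sets with a mean of at least 13 on the log2 scale, 85.4%, 66.2% and 66.9% lay within 0.1 of 0 in the 3 comparisons, in the order miR-11, dE2F1/dDP and all 3 transgenes. Among 3393 probe sets between 7 and 9 the shares were 33.1%, 17.9% and 19.0%, and among the 9818 dimmest, under 5, they were 64.2%, 60.4% and 63.6%. The median SD between replicates of a genotype was 0.15 under 5, 0.34 from 5 to 7, 0.41 from 7 to 9, 0.38 from 9 to 11, 0.29 from 11 to 13 and 0.095 above. The median fold change varied with level too. With dE2F1/dDP it was -0.035 under 5, 0.054 from 7 to 9, -0.11 from 11 to 13 and -0.023 from 13 upward. The files do not pair probe sets with genes, so the level of each ribosomal protein gene is unknown here. The part of signal level in their narrow range was not tested, nor was its part in the signs left by subtracting the median of all genes.

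The acidic stalk of the large subunit, which recruits the GTPase factors of translation, held some of the values closest to 0. In the authors' deposited table RpLP1, a stalk protein, stood at 0.0067 with miR-11, -0.010 with dE2F1/dDP and -0.0067 for all 3 transgenes. No other member stayed as close to 0 in all 3. Its partner RpLP2 had 0, -0.090 and -0.063 in the authors' deposited table, and RpLP0, the protein that anchors both, had 0.0033, -0.070 and -0.080. RpL12, which sits at the base of the stalk, was the lowest large subunit gene with miR-11; the authors' deposited table put it at -0.28 there and at 0.063 and 0.12 in the other genotypes. Its miR-11 value had a p-value for lower expression of 0.229 in the authors' deposited table, so it was within the range that the rank product test does not call. RpL12 and RpL39, a small protein of the exit tunnel, overlap in the gene annotation, and in the authors' deposited table RpL39 stood at 0.033, -0.070 and -0.073.

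Of 9 genes for proteins around the exit of the polypeptide tunnel, where nascent chains leave the ribosome, all 9 stood within 0.1 with miR-11, 7 with dE2F1/dDP and 8 for all 3 transgenes. RpL22 was the exception in both genotypes with dE2F1/dDP and had the highest value of the large subunit in each. The authors' deposited table put it at -0.080 with miR-11, 0.26 with dE2F1/dDP and 0.31 for all 3 transgenes. These values came with p-values for higher expression of 0.224 and 0.221 in the authors' deposited table, so neither was called. RpL17, at -0.097, -0.14 and -0.093 in the authors' deposited table, was the other exit gene beyond 0.1 with dE2F1/dDP.

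Bridge proteins join the subunits, and their 5 genes had medians of -0.0033, -0.053 and 0.010. RpL24 and RpL30 lay apart from the others with dE2F1/dDP. In the authors' deposited table RpL24 was the lowest large subunit gene with dE2F1/dDP, at -0.31, against 0.067 with miR-11 and 0.050 with all 3 transgenes. Its p-value for lower expression was 0.113 in the authors' deposited table. RpL30, which in mammals also takes part in selenocysteine insertion, stood at -0.073, -0.17 and -0.22 in the authors' deposited table, the last being the lowest of the large subunit with all 3 transgenes. RpS13, the bridge gene of the small subunit, was the lowest gene of that subunit with miR-11, with -0.16, against 0.097 and 0.043 otherwise, in the authors' deposited table. RpL41, the smallest ribosomal protein, had 0.027, -0.010 and 0.010 in the authors' deposited table.

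Among the remaining large subunit genes, RpL27, RpL28 and RpL3 followed RpL22 at the upper end in both genotypes with dE2F1/dDP. The authors' deposited table gave RpL3, which lines the peptidyl transferase centre, 0.16 with dE2F1/dDP and 0.15 with all 3 transgenes, against -0.050 with miR-11. RpL28 had 0.16 and 0.19, against -0.12 with miR-11, in the authors' deposited table. RpL27 had 0.083 with miR-11, 0.17 with dE2F1/dDP and 0.21 for all 3 transgenes in the authors' deposited table. RpL27 overlaps Idh3g (CG5028 in the table), a subunit of mitochondrial isocitrate dehydrogenase, which the authors' deposited table put at 0.45, 0.90 and 0.97. Whether probes for one also bind transcripts of the other was not tested. RpL6 stood at -0.12, 0.083 and 0.14 in the authors' deposited table. RpL32, long used as a reference transcript in fly PCR assays, stood at -0.053, -0.047 and -0.070 in the authors' deposited table.

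The mRNA entry and decoding region of the small subunit was represented by 4 genes, whose medians were -0.025, -0.075 and -0.092. RpS9, which with other proteins forms the mRNA entry channel, gave the lowest of these values, -0.37 with dE2F1/dDP in the authors' deposited table, beside -0.097 with miR-11 and -0.12 with all 3 transgenes. Its p-value for lower expression with dE2F1/dDP was 0.119 and its pfp 0.990 in the authors' deposited table. RpS23, whose protein contacts the decoding centre, stood at -0.0033, -0.013 and 0.033 in the authors' deposited table. RpL40, made as a fusion to ubiquitin, stood at -0.020, -0.010 and -0.073 in the authors' deposited table. RpS30, made as a fusion to a ubiquitin-like protein, had -0.037, -0.067 and -0.16 in the authors' deposited table.

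Of the other small subunit genes, RpS24 had -0.090, 0.087 and 0.093 in the authors' deposited table, which placed it among the 4 highest of the small subunit in both genotypes with dE2F1/dDP and among the 4 lowest with miR-11. RpS12, known in flies for its part in the competition between Minute and normal cells, stood at -0.053, -0.043 and 0.080 in the authors' deposited table. RpS18 had 0.043, -0.073 and -0.040 in the authors' deposited table, and RpS29 had 0.020, -0.077 and -0.020. RpS27 stood at 0.010, 0.083 and 0.077 in the authors' deposited table. None of these genes was called.

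**Figure D2:**
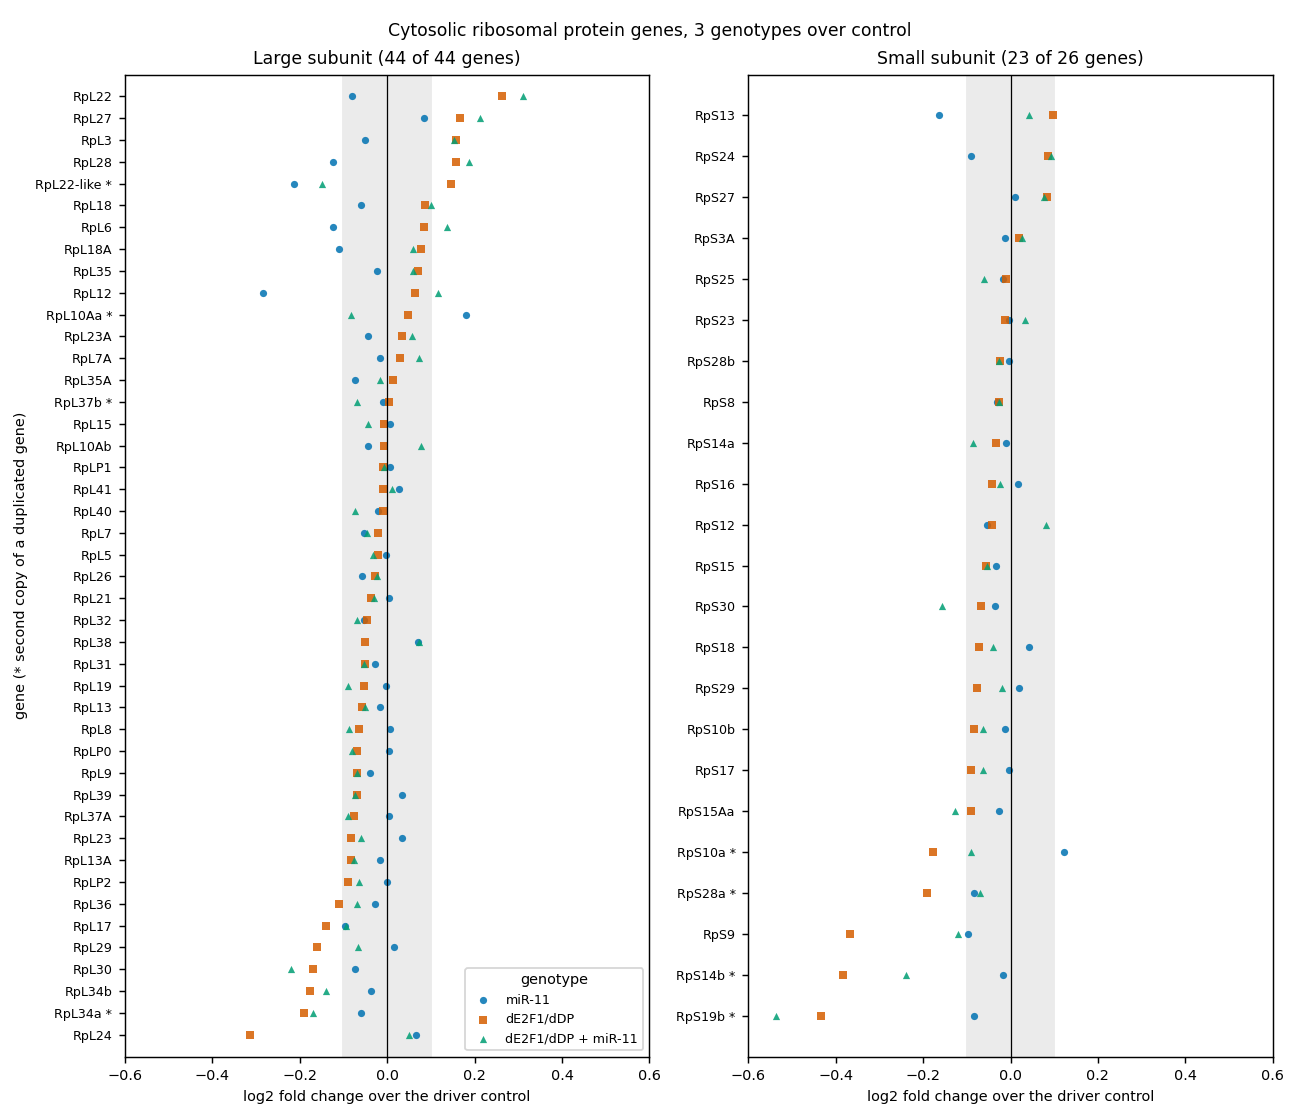
Log2 fold change over the control for 67 of the 70 ribosomal protein genes, with the large and the small subunit apart and one symbol per transgenic genotype; the grey band spans 0.1 on either side of 0, and asterisks mark second copies. Most symbols lie within 0.1 of 0, and RpS19b at -0.43 and -0.54 reaches farthest among the genes drawn.

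A value at least 0.2 from 0 in at least 1 comparison was found for 10 of the 70 genes, and 4 of these 10 were second copies of duplicated genes. The remaining 60 of the 70 (85.7%) stood within 0.2 in all 3 comparisons, against 40.5% of all genes. The table holds 9 second copies, of which 5 stood within 0.2 in all 3 comparisons, against 55 of the 61 other genes. With dE2F1/dDP, 7 of the 9 lay at least 0.1 from 0, compared with 12 of the 61 others. The counts were 4 of 9 against 5 of 61 with miR-11 and 5 of 9 against 13 of 61 with all 3 transgenes. The second copies thus lay nearer to the spread of all genes. Within 0.1 stood 55.6%, 22.2% and 44.4% of them with miR-11, dE2F1/dDP and all 3 transgenes. Of all genes the shares were 46.9%, 34.5% and 37.3%. The medians of the second copies were -0.017, -0.18 and -0.090. Without them, the members within 0.1 came to 91.8% with miR-11, 80.3% with dE2F1/dDP and 78.7% for all 3 transgenes.

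RpS19b, known mainly from the germ line, had the lowest value of all members in both genotypes with dE2F1/dDP. The authors' deposited table put it at -0.083 with miR-11, -0.43 with dE2F1/dDP and -0.54 for all 3 transgenes, the last being 0.689 times the control. The p-values for lower expression were 0.0545 and 0.0247 in the authors' deposited table, with a pfp of 0.792 and 0.593. Its partner gene was not analysed here. The neighbouring gene CG13599 stood at 0.073, -0.35 and -0.44 in the authors' deposited table, and CG5854, on its other side, at -0.17, -0.037 and -0.18.

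RpS14a and RpS14b are adjacent copies in the gene order, with 0 coding genes between them, and encode the same small subunit protein. In the authors' deposited table RpS14b stood at -0.017, -0.38 and -0.24 and RpS14a at -0.010, -0.033 and -0.087. The p-value of RpS14b for lower expression with dE2F1/dDP was 0.0347, with a pfp of 0.701, in the authors' deposited table. The copies are near-identical, so how the probes divide their transcripts is uncertain.

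RpL22-like, a paralogue of RpL22 used mainly in the testis and also in the eye, had the opposite sign to RpL22 with all 3 transgenes. The authors' deposited table put it at -0.21 with miR-11, 0.15 with dE2F1/dDP and -0.15 for all 3 transgenes. Its value minus that of RpL22 was -0.13, -0.12 and -0.46. RpL10Aa, the second copy of RpL10Ab, was the highest large subunit gene with miR-11, at 0.18, and stood at 0.047 and -0.083 otherwise in the authors' deposited table. RpL10Ab stood at -0.043, -0.0067 and 0.077 in the authors' deposited table.

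In another pair, RpL34a and RpL34b were both among the 4 lowest large subunit genes in each genotype with dE2F1/dDP. The authors' deposited table put RpL34a at -0.060, -0.19 and -0.17, and RpL34b at -0.037, -0.18 and -0.14. RpS10a had 0.12, -0.18 and -0.090 in the authors' deposited table, against -0.013, -0.083 and -0.063 for RpS10b. RpS28a, at -0.083, -0.19 and -0.070 in the authors' deposited table, differed by -0.17 from RpS28b with dE2F1/dDP. RpS28b stood at -0.0033, -0.023 and -0.027 in the authors' deposited table. RpL37b, whose partner was not analysed here, stood at -0.010, 0.0033 and -0.070 in the authors' deposited table, and RpS15Aa at -0.027, -0.090 and -0.13.

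**Figure D3:**
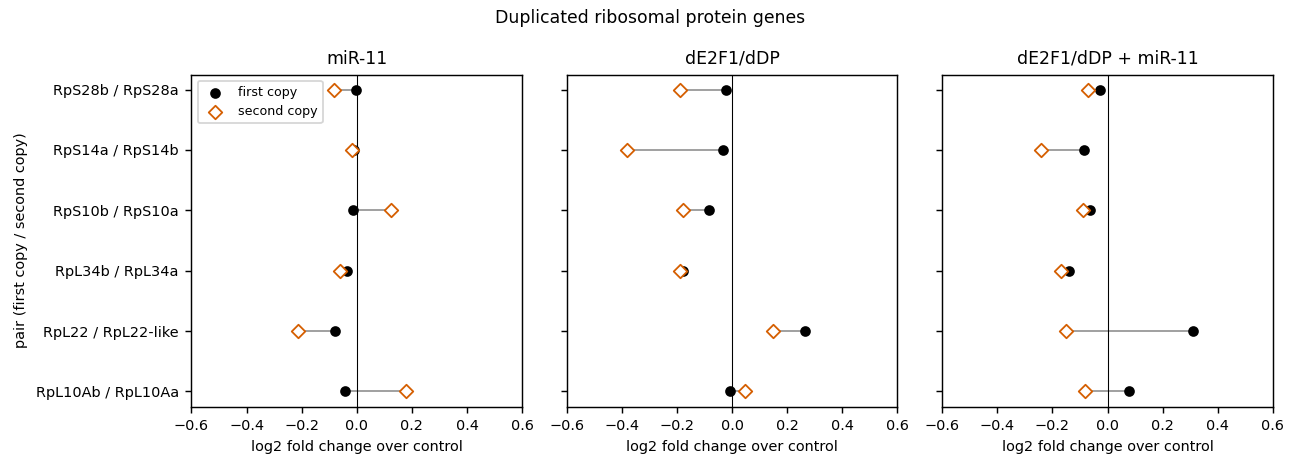
Log2 fold change over the control of both copies in 6 duplicated pairs, one panel per transgenic genotype, with a line joining the copies of a pair. The value of RpL22-like minus that of RpL22 is -0.46 with all 3 transgenes, while the copies of RpL34 lie within 0.03 in each panel.

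Germ line genes were set beside these copies, since several second copies are known from that tissue. None of the 6 germ line genes was called, a count of 0, and their medians were 0.012, 0.055 and 0.12. Of the 6, only tud, a germ plasm gene, passed the unadjusted rule, at 0.92 with dE2F1/dDP and 0.62 with all 3 transgenes in the authors' deposited table. Whether larval gonad or other tissue contributed RNA was not tested.

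Larvae with all 3 transgenes and larvae with dE2F1/dDP alone differ by UAS-miR-11, and the members' fold change in the former minus that in the latter had a median of 0.0050 on the log2 scale. Of the 70, 59 (84.3%) differed by less than 0.1, against 54.3% of all genes. The differences ran from -0.30 for RpL22-like to 0.36 for RpL24, with RpS9 at 0.25 between them. The same difference between all 3 transgenes and miR-11 alone had a median of -0.025. By this measure 45 members (64.3%) differed by less than 0.1, against 34.2% of all genes. Here the ends were RpS19b at -0.45 and RpL12 at 0.40, followed by RpL22 at 0.39. The table has no spread between arrays for these differences, and they were not tested.

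Mitochondrial ribosomal protein genes, which build the separate ribosome of that organelle, had other values in the same table. Their 69 members had medians of -0.017 with miR-11, -0.39 with dE2F1/dDP and -0.33 for all 3 transgenes. Below 0 stood 39, 66 and 62 of the 69, and 0 were called in any comparison by the rank product test. By the unadjusted rule 0, 19 and 6 of them passed on the lower side, against 0 of the 70 cytosolic genes with miR-11 or dE2F1/dDP and 1 with all 3 transgenes, where 1.86%, 3.98% and 4.47% of all genes passed on that side. Within 0.1 of 0 stood 60.9%, 1.45% and 20.3% of them. Both mitochondrial subunits showed this, the 44 large subunit genes with medians of -0.013, -0.38 and -0.33 and the 25 small subunit genes with -0.047, -0.40 and -0.34. No test compared the cytosolic with the mitochondrial list.

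Genes that build or use the cytosolic ribosome were spread more widely than its proteins. Of 26 genes for ribosome assembly and the nucleolus, 0 were called, and the medians were -0.063, 0.057 and 0.0084. A member of this list, Rrp1, encodes a DNA repair enzyme, and without it the medians of the other 25 were -0.057, 0.027 and -0.010, so the last changed sign. By the unadjusted rule 0, 2 and 1 of the 26 passed on the higher side, as did 2.37%, 3.4% and 4.43% of all genes. In the authors' deposited table mod, a nucleolar protein gene, stood at -0.12, 0.78 and 0.66, and Rrp6, for a subunit of the RNA exosome, at 0.0033, 0.69 and 0.50. The 26 translation factor genes had medians of -0.15, 0.052 and 0.13, with 4, 17 and 18 above 0, and 0 were called and 0 passed the unadjusted rule in any comparison. At the ends of that list the authors' deposited table had eIF5 at 0.53 with dE2F1/dDP and eIF3-S9 at -0.47 with miR-11. Thor, the fly 4E-BP that restrains cap-dependent translation, stood at 0.22, 0.037 and 0.44 in the authors' deposited table.

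The transcription factor Xrp1 is switched on in fly cells that lack a ribosomal protein copy, and Irbp18 is its partner. Xrp1 (listed as CG17836 in the authors' deposited table) stood at -0.033 with miR-11, 0.94 with dE2F1/dDP and 0.82 for all 3 transgenes. Its p-values for higher expression were 0.0021 and 0.0038 in the authors' deposited table, and a pfp of 0.308 and 0.302 left it uncalled. Irbp18 (listed as CG6272) stood at -0.027, -0.44 and -0.52 in the authors' deposited table. It was not called either.

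**Figure D4:**
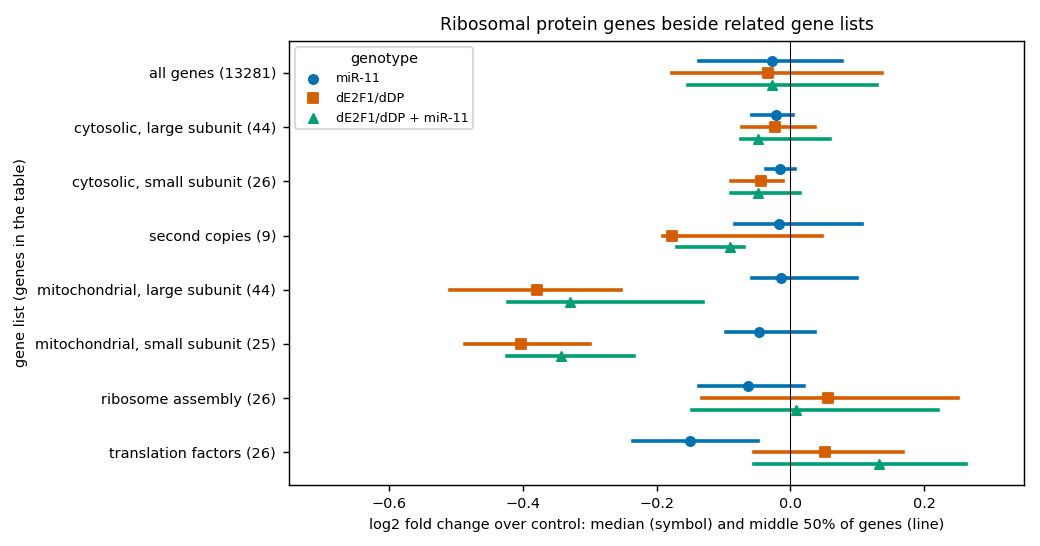
Median (symbol) and middle 50% of genes (line) of the log2 fold change over the control for each gene list, by transgenic genotype. Both cytosolic subunits lie within 0.05 of 0 with short lines, and both mitochondrial subunits lie near -0.4 and -0.3 in the genotypes with dE2F1/dDP.

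A further 5 genes are ribosomal protein genes or relatives of them whose symbols in the deposited table do not begin with RpL or RpS. For 4 of them the RefSeq gene table has such a symbol, and sta has the same symbol in both. Of the structural protein genes, sta, which encodes a small subunit protein, and oho23B (RpS21) stood at -0.013, -0.017 and -0.090 and at -0.020, -0.080 and -0.090 in the authors' deposited table. CG34182, a relative of RpS28, had 0.013, -0.023 and -0.037 in the authors' deposited table. The remaining genes belong to assembly factors known in yeast, which bind the growing subunit and leave before translation starts. Of these, CG6764 (RpL24-like) stood at -0.083, -0.50 and -0.28 and CG1381 (RpLP0-like) at 0.037, -0.31 and -0.40 in the authors' deposited table. None of the 5 was called.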

How the data were processed

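The log2 fold changes, p-values and pfp scores per gene were deposited by the authors as a rank product table with 3 comparisons, per the file headers, and the sources used here do not give its settings. The log2 expression values per probe set and array were also deposited by the authors. The submitters' processing notes name affy, without a version, and the labels give 100 ng of total RNA per biotin-labelled sample. These values held 18952 probe sets, of which 183 controls were left out. All 301 genes with an absolute log2 fold change of at least 1 had a probe set within 0.01 in all 3 comparisons, so both sources describe the same arrays.

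Calls used a pfp under 0.05 in the direction of the fold change; the looser rule doubled the smaller of both p-values. Lists are described by counts and medians with Python 3.11.15 and pandas 2.3.3, without a set test. The counting steps were tested on simulated data. Genes were named as pairs of copies, stalk, fusion and reference genes, and the 4 highest and 4 lowest of each subunit in each comparison. Values of 3 of the 70 genes enter the counts and medians but are not reported here one by one. RpL17, RpL39, RpL41, RpS23, the neighbouring genes and the genes named from the assembly, translation and germ line lists were picked after their values were seen. The members and lists were chosen with earlier results of these data known. A planned limma fit over the 12 arrays was not run for the members, since probe sets have no gene names here. Current names and gene order come from a RefSeq table of Release 6, in which 12786 genes of the deposited table matched.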

Additional observations from a re-analysis of the deposited data

How the results depend on the processing

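The count of called members was 0 in each comparison at a pfp under 0.05, at a pfp under 0.10, with the doubled p-values Benjamini-Hochberg adjusted over all genes, and with members taken by current symbol. The medians of the large and small subunit were recomputed in 24 combinations of comparison and setting: minus the median of all genes, by current symbol, without tissue-restricted copies, and as means. All stayed within 0.05 of the value reported, a tolerance chosen here because the table gives no spread between replicates, and the largest move was 0.037; 3 changed sign, those under subtraction of the median of all genes that the text names. Chosen after seeing the data, leaving Rrp1 out of the assembly list moved its medians to -0.057, 0.027 and -0.010.

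No paired analysis was possible because the deposited table has no value per array and probe sets could not be tied to genes. For the same reason leaving out each replicate, quantile normalization, a filter on dim probe sets and the fit on 6 arrays were not run for the members. Fold changes near 0 without an interval do not show that a gene is unaffected, and cross-hybridisation between near-identical copies cannot be judged.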

Other observations

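Among the 10 members at least 0.2 from 0, RpL12, RpL24, RpL27 and RpL30 overlap a neighbouring gene in the annotation. The rest of the 10, among them RpS19b, RpS14b and RpS9, do not overlap their neighbours. Overlap was looked up only for these 10, so its share among the members nearer to 0 is unknown here. Whether overlap goes with wider values was not tested. In the authors' deposited table CG7099, which overlaps RpL24, stood at -0.65 in the miR-11 genotype, 0.17 with dE2F1/dDP and -0.033 where all 3 transgenes were present, and CG31793, which overlaps RpL30, at -0.22, 0.20 and 0.083. At the low end of the assembly list Rrp42, for an exosome subunit, stood at 0.090, -0.40 and -0.46 in the authors' deposited table, while Rrp6 of the same complex lay above 0 with dE2F1/dDP. Int6, for a subunit of the initiation factor eIF3, stood at -0.16, -0.26 and -0.33 in the authors' deposited table, whereas eIF4G, the scaffold of cap-dependent initiation, stood at -0.027, 0.49 and 0.46.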
